A study of Rattus norvegicus with 4 samples.

Results

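The genes described here are 8 genes of the red blood cell and its precursors: Sptb, Ank1 and Epb42 of the membrane skeleton, the membrane transport proteins Slc4a1 and Rhag, the transcription factors Klf1 and Gata1, and Epor, the receptor for erythropoietin. They were chosen by symbol, ignoring case, and all 8 had a row among the 24005 genes of the count table. The libraries were made from polyadenylated RNA of cartilage. The animals were Sprague Dawley rats, all male, of 8 to 12 weeks and 140 to 230 g. The control group was 2 libraries labelled healthy, with control as treatment. The osteoarthritis group was 2 libraries labelled osteoarthritis that also carry the treatment label XGS, for the herbal preparation Xiaogu San, and the series' title names monosodium iodoacetate as the agent that induced the disease. Disease and treatment therefore cannot be told apart. The series' design text speaks of mice for the normal animals, where every sample label says rat. The labels do not say that libraries came from separate animals, so p-values measure the spread between these libraries, which may be technical. The labels give no replicate numbers. Replicate 1 and replicate 2 of a group are named here by the order of the samples.

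Red blood cells are made in bone marrow from erythroblasts. Erythropoietin, acting through Epor, keeps these precursors alive, and GATA1 and KLF1 switch on the globin, heme and membrane genes as they mature. The membrane is held in shape by a spectrin mesh that ankyrin ties to band 3, the anion exchanger encoded by Slc4a1. Protein 4.2 strengthens that link, and the Rh-associated glycoprotein sits in a neighbouring complex. Cartilage itself has no blood vessels and lies against marrow-bearing bone at the joint.

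For each of the 8 genes, the osteoarthritis libraries both lay below the lower control. The control level was above the osteoarthritis level by fitted folds from 4.52 for Ank1 to 23.5 for Klf1, leaving aside Gata1, which had 1 count in osteoarthritis. Across the 15282 genes tested, 26.5% had both osteoarthritis libraries below both controls, 30% had both above, and 44.9% had a negative log2 fold change. None of the 8 passed edgeR's quasi-likelihood test after Benjamini-Hochberg adjustment over all genes tested, and percent called by that test was 0 for all genes in either direction. By that test's unadjusted p, with a threshold of 0.05, 7 of the 8 were lower, all but Ank1, against 11.2% of all tested genes. DESeq2 called those 7 at an adjusted p under 0.05, against 8.26% of all genes called lower and 7.24% called higher. edgeR's likelihood ratio test called 5 of them, all but Sptb, Ank1 and Slc4a1, against 6.4% lower and 6.31% higher. All 8 passed the filter on low counts. Of them 7 reached its level in an osteoarthritis library too, and Gata1 passed through the controls alone. In bulk tissue, fewer cells of a type and less RNA per cell cannot be told apart.

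Promoter sequence is shown because the genes were low in the same libraries and because 2 of them encode factors that bind known motifs. A RefSeq table of the rat assembly GRCr8 held a window from 250 bases before to 50 bases after an annotated start for 6 of the 8 genes, all but Ank1 and Slc4a1. The GATA motif was searched as AGATAA and also as AGATAG, with TGATAA and likewise with TGATAG, and the CACCC motif, the kind of site KLF1 binds, as CCNCNCCC, both on either strand. Matches are in capitals below, and sequences read 5′ to 3′ along the gene. The first 4 stretches lie upstream of the gene's outermost end in the annotation.
Klf1, chr19:40158652-40158901, minus strand: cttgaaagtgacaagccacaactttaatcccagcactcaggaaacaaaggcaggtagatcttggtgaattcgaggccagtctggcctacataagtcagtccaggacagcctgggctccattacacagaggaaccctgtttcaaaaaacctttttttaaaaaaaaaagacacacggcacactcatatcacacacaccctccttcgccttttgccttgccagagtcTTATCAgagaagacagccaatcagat
Rhag, chr9:27594391-27594640, minus strand: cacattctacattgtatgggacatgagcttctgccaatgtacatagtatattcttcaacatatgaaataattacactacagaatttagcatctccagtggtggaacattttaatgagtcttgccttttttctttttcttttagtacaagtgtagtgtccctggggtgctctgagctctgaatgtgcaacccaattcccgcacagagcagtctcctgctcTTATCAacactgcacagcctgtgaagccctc
Epb42, chr3:128451684-128451933, minus strand: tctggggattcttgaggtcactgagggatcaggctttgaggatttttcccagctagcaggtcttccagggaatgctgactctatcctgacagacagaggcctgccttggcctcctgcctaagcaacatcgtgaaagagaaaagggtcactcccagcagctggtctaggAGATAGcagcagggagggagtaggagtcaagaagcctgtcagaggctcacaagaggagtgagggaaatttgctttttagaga
Epor, chr8:28770372-28770572, minus strand: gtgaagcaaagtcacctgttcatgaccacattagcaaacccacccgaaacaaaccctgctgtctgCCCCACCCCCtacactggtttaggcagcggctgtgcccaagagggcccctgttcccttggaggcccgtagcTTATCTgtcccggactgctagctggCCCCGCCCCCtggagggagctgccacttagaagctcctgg
A GATA match was found in 5 of the 6 windows, those of Sptb, Epb42, Rhag, Klf1 and Epor, against 30.3% of 33469 rat promoter windows of 300 bases. A CACCC match was found in 3, those of Sptb, Gata1 and Epor, against 46.3%. In Klf1 and Rhag the GATA match was the same word on the opposite strand of the gene, TTATCA as printed, and ended 21 and 26 bases before the start. The match in Epb42 ended 77 bases before its start and that in Epor 109 bases before. In Epor each of the capitalised CACCC stretches holds a pair of overlapping matches. Sptb had GATA matches starting 107 and 57 bases before the start, shown with their flanks, and Gata1 had CACCC matches alone, of which the middle one is shown. The windows of Epor, Sptb and Gata1 belong to a start inside the annotated gene. The Epor stretch above ends 50 bases before its start, where the annotated gene begins. The first Sptb stretch crosses the gene's outer end, and the second Sptb stretch and that of Gata1 lie within the gene.
Sptb, chr6:101170368-101170397, minus strand: cccgccgcgggaCTATCTggtcccggcagc
Sptb, chr6:101170318-101170347, minus strand: atgtccctcctcAGATAAtgttatttatat
Gata1, chrX:17201517-17201546, plus strand: cccctgtgctgCCCCACCCactggggcacc
These matches describe letters in a window. No binding was measured in these samples.

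The membrane skeleton genes kept the largest shares of their control level in osteoarthritis replicate 2. Sptb encodes the beta chain of red cell spectrin, part of the mesh under the membrane. It stood at 179 and 234 CPM (counts scaled to library size with edgeR's TMM factors) in the controls and at 9.53 and 66.5 CPM in the osteoarthritis libraries. The groups did not overlap, and the lower osteoarthritis value was replicate 1. The log2 fold change, osteoarthritis over control, was -2.44 ± 0.91 (SE, n = 2 per group, edgeR adjusted p = 0.198).

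Ank1 encodes ankyrin-1, the adaptor between spectrin and band 3. Its level was 38.9 and 72.9 CPM in the controls and 0.984 and 23.8 CPM in osteoarthritis. The higher osteoarthritis library came within a factor of 2 of the lower control, the closest approach among the 8 genes. Its log2 fold change was -2.18 ± 1.31 (edgeR adjusted p = 0.376), and it was -5.81 without osteoarthritis replicate 2 and -1.28 without replicate 1. Epb42 encodes protein 4.2, which binds ankyrin and band 3. Its controls were close together at 67.9 and 77.4 CPM, while the osteoarthritis libraries held 1.36 and 15.6 CPM (log2 fold change -3.10 ± 1.09, edgeR adjusted p = 0.183).

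The fitted log2 fold changes of the transport genes lay lower than those of the skeleton genes, a difference that was not tested. Slc4a1 encodes band 3, the chloride-bicarbonate exchanger that lets red cells carry carbon dioxide and the most abundant integral protein of their membrane. It was the highest of the 8 genes in every library, with 930 and 1383 CPM in control against 9.73 and 193 CPM in osteoarthritis. The difference between the osteoarthritis libraries was 19.8-fold, and both stayed well under the controls (log2 fold change -3.51 ± 1.36, edgeR adjusted p = 0.206). Rhag encodes the glycoprotein that carries Rh proteins to the surface and passes ammonia or gas. It had 90.0 and 146 CPM in control against 0.441 and 11.1 CPM in osteoarthritis, from 13 and 257 counts. Its spread between the osteoarthritis libraries, 25.2-fold, was the widest of the 7 genes where it could be computed (log2 fold change -4.36 ± 1.40, edgeR adjusted p = 0.163).

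**Figure D1:**
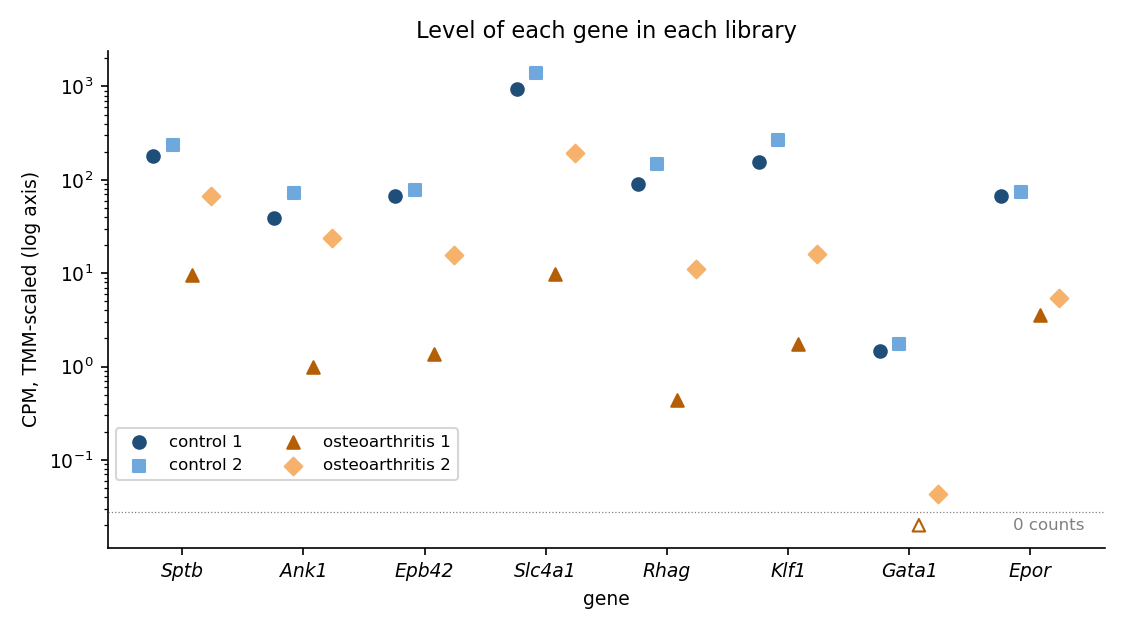
CPM on a log axis for each of the 8 genes (horizontal axis) in each library, with 1 point per library and the open triangle for 0 counts. Both osteoarthritis points lie below both control points for each gene, and Slc4a1 is highest in all 4 libraries.

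Among the regulators, Klf1 was abundant in control and Gata1 was near the limit of detection. Klf1 encodes the erythroid Krüppel-like factor that activates beta globin and many membrane genes. Its level was 155 and 265 CPM in control against 1.76 and 16.1 CPM in osteoarthritis. The higher osteoarthritis value is 13.0-fold below the control mean and the lower one 119-fold (log2 fold change -4.56 ± 1.12, edgeR adjusted p = 0.118).

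Gata1 encodes the zinc finger factor required for red cell and platelet precursors. Its raw counts were 42 and 46 in control and 0 and 1 in osteoarthritis. That is 1.48 and 1.76 CPM in control and 0.0432 CPM in osteoarthritis replicate 2, and the count of 0 in replicate 1 allows up to 0.102 CPM. Summed over each group, 88 counts stood against 1, a ratio of control to osteoarthritis of 85.0 with a 95% interval of 14.9 to 3395 (exact, Poisson). That interval covers counting error only. The unadjusted p was 0.0280 and the edgeR adjusted p was 0.173.

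Gata1 had few counts beside its partners already in control, and whether reads of Gata1 were lost in mapping or counting was not tested. Per gene length, in FPKM (fragments scaled by gene length and library size), Gata1 stood at 0.802 and 0.875 there, and Klf1 at 99.5 and 156. The ratio of Klf1 to Gata1 was thus 124 and 178. Zfpm1, the cofactor FOG-1 that binds GATA1, was at 42.0 and 33.9 FPKM, and Tal1, a factor that joins GATA1 on DNA, at 38.1 and 45.5 FPKM. The ratios of Zfpm1 and Tal1 to Gata1 ran from 38.7 to 52.3, below those of Klf1.

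Epor was the gene whose osteoarthritis libraries were most alike. It encodes the cytokine receptor through which erythropoietin signals to JAK2 and STAT5. Its level was 67.3 and 73.4 CPM in control against 3.56 and 5.49 CPM in osteoarthritis, from 105 and 127 counts. Replicate 2 was 1.54-fold above replicate 1, where the 6 other genes with enough counts differed by 6.98-fold to 25.2-fold. Each of those differences is between single libraries and has no test. The log2 fold change was -3.96 ± 0.40 with an unadjusted p of 0.000118 in edgeR, and its adjusted p = 0.0824 was the smallest that this test gave, a value that other genes shared. Over all genes, 2.16% had a log2 fold change as low or lower. DESeq2 gave Epor an adjusted p = 2.35e-14.

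**Figure D2:**
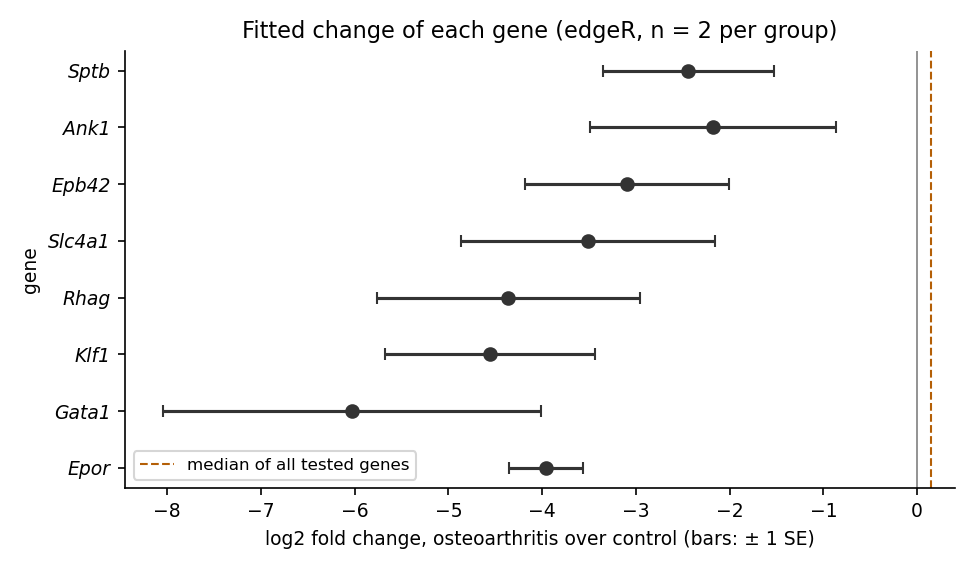
Fitted log2 fold change, osteoarthritis over control, for each of the 8 genes, with bars of 1 SE and a dashed line at the median of all tested genes (0.15). The bar of Epor is the shortest, and the value for Gata1 depends on the prior count because its osteoarthritis counts were 0 and 1.

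The share of the control level found in osteoarthritis replicate 2 was largest for the skeleton genes. In that library Ank1 stood at 42.5% of its control mean, Sptb at 32.2%, Epb42 at 21.5% and Slc4a1 at 16.7%. Rhag followed at 9.40%, Epor at 7.80%, Klf1 at 7.68% and Gata1 at 2.67%. The skeleton genes thus came first, the transport genes next and the regulators last, and this order has no test because it rests on 1 library. In replicate 1 the order was another: Epor was at 5.06% and Sptb at 4.62%, Epb42 at 1.87%, Ank1 at 1.76%, Slc4a1 at 0.842%, Klf1 at 0.840% and Rhag at 0.373%.

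Hbb and Alas2 stood at smaller shares in replicate 2 than each of the 3 skeleton genes. Hbb, the beta globin gene, stood at 1.33% of control in replicate 1 and 2.44% in replicate 2, and Alas2, which starts heme synthesis in erythroblasts, at 1.32% and 7.64%. Globin copies are near identical and can share reads, so the level of a single copy is uncertain. Relative to Hbb in the same library, Slc4a1 stood at 3.85 and 6.95 FPKM per 1000 FPKM of Hbb in the controls, 3.33 in osteoarthritis replicate 1 and 35.9 in replicate 2. Ank1 stood at 0.124 and 0.284 in control against 0.260 and 3.42, and Sptb at 0.360 and 0.572 against 1.58 and 6.02. Sptb, Epb42 and Epor were above both controls in both osteoarthritis libraries on this scale. Epb42 stood at 0.816 and 5.12 against 0.494 and 0.685 in control. Epor stood at 2.62 and 2.20 against 0.599 and 0.794. A rise on this scale was not particular to the 8 genes. Hba2 was also above both controls in both osteoarthritis libraries, at 1355 and 2651 against 823 and 1319. Hba-a1 was too, at 28.8 and 40.2 against 11.1 and 0.210. Hba1 and Alas2 were above both controls in replicate 2 alone.

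**Figure D3:**
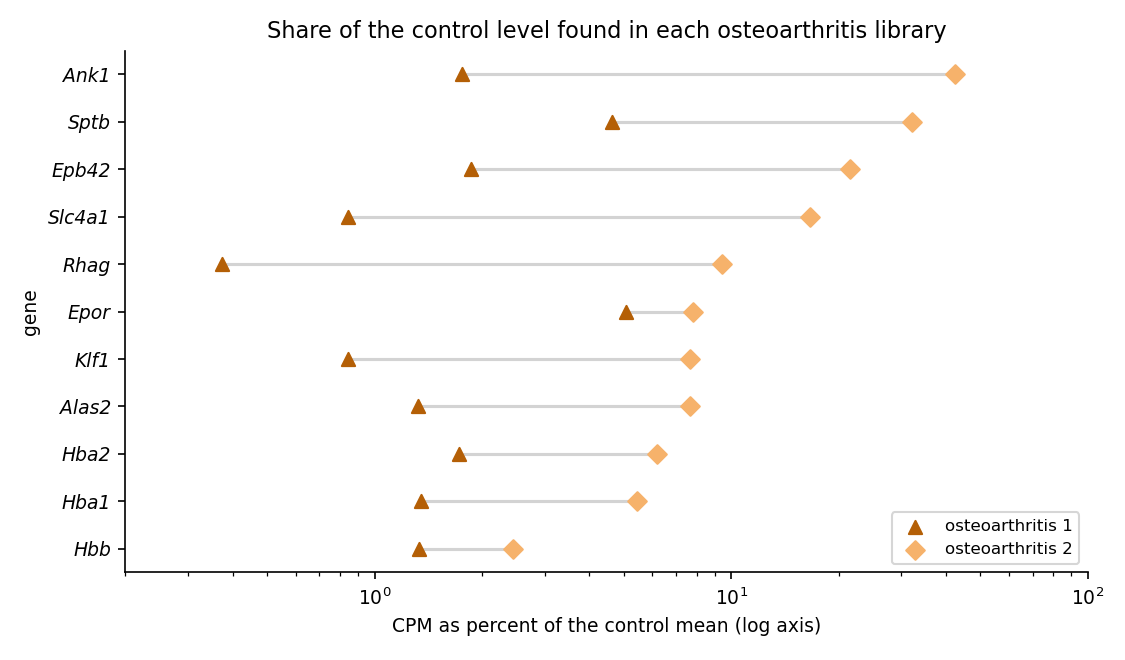
CPM in each osteoarthritis library as a percent of the control mean, on a log axis, for 7 of the 8 genes and for Alas2 and globin genes; Gata1 is left out for its low counts. Sptb and Ank1 lie at 32.2% and 42.5% in replicate 2, and Hbb at 2.44%.

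**Figure D4:**
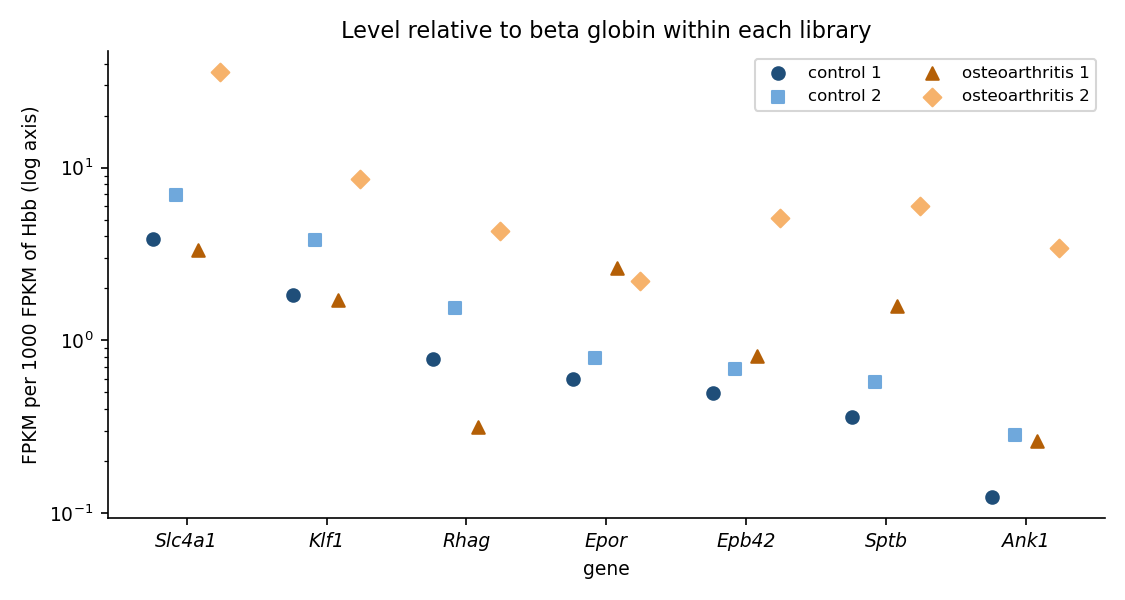
FPKM of 7 of the 8 genes per 1000 FPKM of Hbb within each library, on a log axis, with 1 point per library. Osteoarthritis replicate 2 is the highest library for each gene but Epor.

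Rhd, the Rh protein that needs Rhag, was named after its values were seen. It stood at -4.55 ± 1.01 on the log2 scale, with an edgeR adjusted p of 0.109, beside -4.36 for Rhag. The FPKM ratio of Rhag to Rhd was 0.452 and 0.438 in control, 0.156 in osteoarthritis replicate 1 and 0.556 in replicate 2.

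Ratios between some of the 8 genes, chosen because their proteins bind or for contrast, were taken within each library. Ank1 stood at 0.346 and 0.496 of the FPKM of Sptb, the protein it binds, in control, and at 0.164 and 0.569 in osteoarthritis. For Epb42 over its binding partner Slc4a1 the ratio was 0.129 and 0.0986 in control and 0.245 and 0.143 in osteoarthritis. Of these 3 ratios, Epor over Slc4a1 differed most between the osteoarthritis libraries, at 0.156 and 0.114 in control, 0.787 in osteoarthritis replicate 1 and 0.0613 in replicate 2. These ratios are within single libraries and have no test.

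By FPKM, the order of the 8 genes was the same in both controls. Slc4a1 led with 209 and 284 FPKM, followed by Klf1, Rhag with 42.4 and 62.9 FPKM, Epor with 32.6 and 32.5 FPKM, Epb42 with 26.9 FPKM in control replicate 1 and slightly more in replicate 2, Sptb with 19.6 and 23.4 FPKM, Ank1 with 6.77 and 11.6 FPKM, and Gata1. The ranges of Epor, Epb42 and Sptb did not overlap but lay within a few FPKM of each other, while Slc4a1 and Klf1 stood clear. In osteoarthritis Slc4a1 stayed first, at 2.61 and 38.2 FPKM, and Gata1 last. Epor was second in replicate 1 at 2.06 FPKM and seventh in replicate 2 at 2.34 FPKM, since the others were higher in replicate 2.

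The other genes of the pathway were taken from lists chosen by function. Of 24 further red cell membrane genes, 15 were lower and 0 higher at an unadjusted p under 0.05 (edgeR). The shares of all tested genes were 11.2% and 12.2%. Of the 24, 17 lay below both controls and 1 above, against 26.5% and 30% of all tested genes. DESeq2 called 14 of them lower, against 8.26% of all genes. Their median log2 fold change was -2.12, against 0.15 over all genes. The 4 most abundant are also made by many other cells: the water channel Aqp1 had a log2 fold change of 0.08 ± 0.52, Cd47 one of -0.25 ± 0.39, the adducin Add1 one of -0.10 ± 0.37, and the laminin-binding Bcam one of 0.55 ± 0.76. None of these 4 passed at an unadjusted p under 0.05.

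Of 16 other erythroid regulators tested, 9 were lower and 1 higher at an unadjusted p under 0.05, against 11.2% and 12.2% of all tested genes. Their median log2 fold change was -1.51, and DESeq2 called 8 lower, against 8.26%. Myb, also on that list, was not analysed here. By abundance the named genes were Zbtb7a, a repressor of fetal globin, at 0.96 ± 0.38 and above both controls, E2f2, a cell cycle factor of erythroblasts, at -3.14 ± 0.48, Ldb1, the bridge of the GATA1 complex, at -0.54 ± 0.31, and Zfpm1 at -2.03 ± 0.33. Ldb1 did not pass at an unadjusted p under 0.05. Zbtb7a had 89.0 and 122 CPM in control against 237 and 174 CPM in osteoarthritis.

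Genes of erythropoietin signalling lay on both sides. Of 15 tested, 4 were lower and 2 higher at an unadjusted p under 0.05, against 11.2% and 12.2% of all tested genes, and the median log2 fold change was 0.35. Bcl2l1, a survival gene, was at -0.92 ± 0.32 and the phosphatase Ptpn6 at -1.54 ± 0.39. Socs3, a feedback inhibitor, was at 0.89 ± 0.53, and Irs2 at 0.09 ± 0.44. Epo itself, the hormone, was not tested, with 0 counts in 3 libraries and 10 in osteoarthritis replicate 1.

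Of 19 globin, heme and red cell cytosol genes tested, 18 were lower at an unadjusted p under 0.05, against 11.2% of all tested genes. Their median log2 fold change was -3.18, and DESeq2 called 18 lower, against 8.26%. Hba-a2, also on that list, was not analysed here. The named ones were Hba1 at -4.88 ± 1.19, Hbb at -5.73 ± 0.92, Hba2 at -4.66 ± 1.03 and Alas2 at -4.48 ± 0.96. Of 8 late maturation genes, which act as red cells clear their organelles and proteins, 3 were lower and 0 higher at an unadjusted p under 0.05, against 11.2% and 12.2% of all tested genes. Xpo7 was at -1.46 ± 0.42 and Ube2o at -1.72 ± 0.61, while Bnip3l at -0.38 ± 0.36 and Riok3 at -0.78 ± 0.34 did not pass at an unadjusted p under 0.05. No gene of these lists passed edgeR's quasi-likelihood test after adjustment over all genes.

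The genes most like the 8 were found by distance between patterns. For each gene, log2 CPM (prior count of 2) was centred on its own mean, and the Euclidean distance to the mean pattern of the 8 was taken over the 4 libraries. Among 12986 candidates, whose median distance was 4.97, the nearest were Nags (0.153), Add2 (0.178), Padi4 (0.377), Hemgn (0.377), Ermap (0.402), Ly6g6f (0.415), Ccnb2 (0.468) and Dyrk3 (0.494). Add2 encodes beta adducin, which caps actin in the membrane skeleton, Hemgn encodes hemogen, a nuclear protein of blood cell precursors, and Ermap is an erythroid membrane protein. The roles of Nags, Padi4, Ly6g6f, Ccnb2 and Dyrk3 are not described here, and the search was not limited to erythroid genes. Nags was low, at 3.38 and 4.83 CPM in control against 0 and 0.605 CPM in osteoarthritis. The prior count of 2 therefore weighs on its distance. Add2 had 119 and 142 CPM in control against 2.20 and 18.5 CPM in osteoarthritis. The 8 genes themselves lay at distances from 0.504 for Epb42 to 1.72 for Epor.

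Markers of other cells differed between the same libraries, and their part in the results was not tested. Globin counts took 12% and 12.4% of all counts in control and 0.218% and 0.552% in osteoarthritis, of totals from 24492412 to 28270779 counts. The 8 genes together summed to 1530 and 2254 CPM in control against 27.4 and 331 CPM in osteoarthritis. Over all tested genes, 26.5% lay below both controls, and the counts of that kind below are read beside that share. The wider erythroid list, led by Hbb, Alas2 and Ahsp, had 10 of 10 below both controls. Its sum was 36124 and 30318 CPM in control against 435 and 1003 CPM in osteoarthritis. Markers of megakaryocytes and platelets, which also use Gata1, led by Pf4, Itga2b and Ppbp, summed to 550 and 526 CPM against 22.9 and 60.0 CPM, with 7 of 7 tested below both controls and Gp1bb at 0 in all 4 libraries. Gp5 had 28 and 29 counts in control against 0 and 2 in osteoarthritis. It passed the low-count filter through the controls alone and so adds little to that count. Markers of neutrophils and their precursors, led by S100a9, Ngp and S100a8, summed to 7250 and 11353 CPM against 101 and 593 CPM, with 9 of 9 tested below both controls. Eosinophil markers, led by Prg2, Epx and Siglec5, summed to 280 and 198 CPM against 12.7 and 15.9 CPM, with 5 of 5 tested below both controls. For markers of osteoblasts and osteocytes, led by Bglap, Ibsp and Dmp1, the sums were 780 and 4054 CPM against 42.0 and 45.6 CPM, and for those of dividing cells, led by Mki67, Top2a and Cdk1, 562 and 780 CPM against 80.0 and 211 CPM. The low level of the 8 genes thus came with low levels of markers for several marrow and bone cell types.

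For most of the remaining lists the groups overlapped. Their counts below both controls also stand against 26.5% of all tested genes. Skeletal muscle uses Sptb and forms of Ank1, and its markers, led by Acta1, Atp2a1 and Ckm, summed to 3129 CPM in control replicate 1, 146 CPM in control replicate 2, and 168 and 405 CPM in osteoarthritis, with 1 of 11 tested below both controls. The part of muscle in the levels of Sptb and Ank1 was not tested. Mast cells also use Gata1, and their markers, led by Mcpt1l1, Cma1 and Ms4a2, summed to 111 and 74.6 CPM in control against 151 and 47.8 CPM in osteoarthritis, with 3 of 8 below both controls. Endothelial cells can carry Epor, and their markers, led by Vwf, Pecam1 and Tie1, had 0 of 10 below both controls and summed to 1174 and 557 CPM against 1694 and 1036 CPM. Chondrocyte markers, led by Col2a1, Comp and Chad, check the tissue label. They had counts in every library for all 9 genes analysed and summed to 24296 and 35637 CPM in control against 4108 and 8190 CPM in osteoarthritis, with 5 of 9 below both controls. Col2a1 made up most of the control sums. Hapln1, Col9a1, Col11a2 and Chad also lay below both controls in both osteoarthritis libraries. Chad had 5020 and 4012 CPM in control against 151 and 198 CPM in osteoarthritis. Comp, Acan and Sox9 differed between the osteoarthritis libraries. In replicate 2 they stood at 4468, 2703 and 189 CPM, each above both controls. In replicate 1 they stood at 278, 70.9 and 19.5 CPM, each below both controls. Col2a1, the main collagen of cartilage, was at 13919 and 26813 CPM in control against 3431 and 385 CPM in osteoarthritis, and replicate 2, which held more of the 8 genes, had the lowest value. The osteoarthritis libraries also differed in adipocyte markers (Fabp4, Lpl and Adipoq lead), at 6170 CPM in replicate 1 and 107 CPM in replicate 2, and in tendon and ligament markers (Fmod, Thbs4 and Tnmd lead), at 352 and 7523 CPM.

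**Figure D5:**
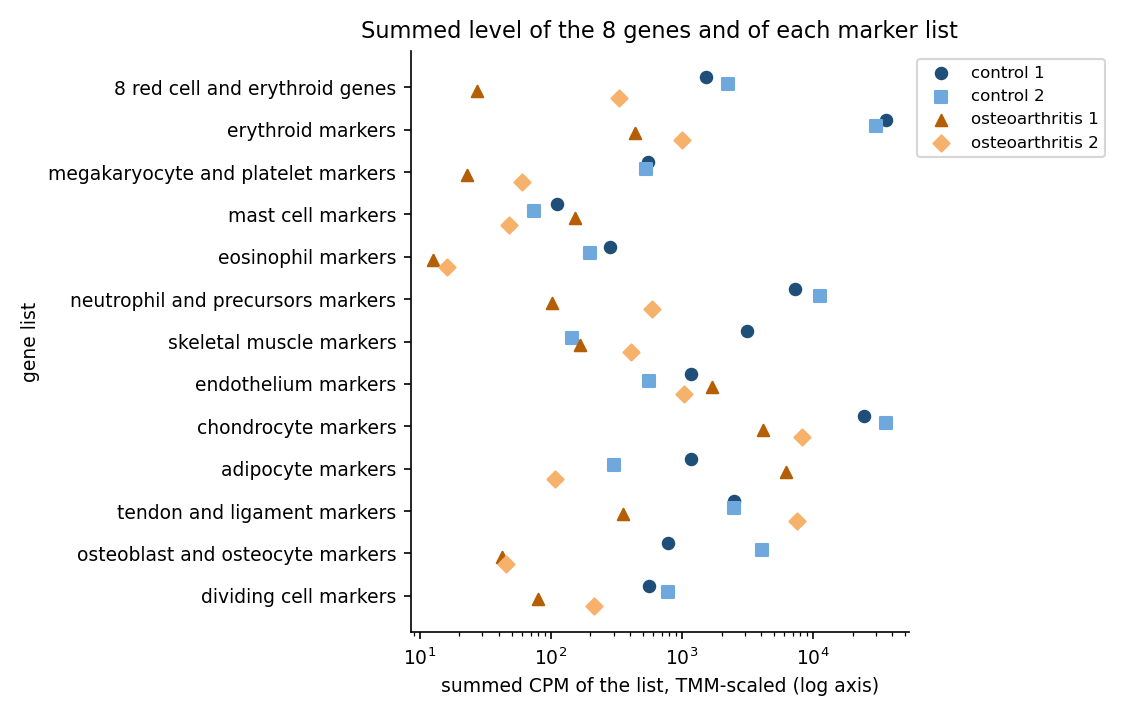
Summed CPM of the 8 red cell and erythroid genes and of each marker list, on a log axis, with 1 point per library. The 8 genes and the erythroid, megakaryocyte, eosinophil, neutrophil, chondrocyte, osteoblast and dividing cell lists are separated by group, and the mast cell, muscle, endothelial, adipocyte and tendon lists are not.

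In CPM, each of the 8 genes was higher in replicate 2 than in replicate 1, in osteoarthritis and in control. The share of all genes that did so was not counted. In osteoarthritis the median log2 difference, replicate 2 over replicate 1, was 3.30 for the 8 and 0.03 for all tested genes. Gata1 rested there on 0 and 1 counts. Some marker lists were also less far below control in osteoarthritis replicate 2. Median log2 differences from control, replicate 1 first, were -5.88 and -3.21 for erythroid markers and -7.11 and -3.99 for neutrophil markers. Other lists went the other way, among them osteoblast and osteocyte markers at -4.11 and -4.39. Epor had 1912 and 1914 counts in control, and its FPKM was slightly lower in control replicate 2. Leaving out a library therefore moved the fits. Without osteoarthritis replicate 2 the log2 fold changes of the 8 ran from -8.50 to -4.29, and edgeR called 7 of them lower, all but Gata1, against 5.73% of all genes. Without osteoarthritis replicate 1 they ran from -5.12 to -1.28, with 6 called, all but Ank1 and Gata1, against 6.95%. In both fits the lone osteoarthritis library is assumed to vary like the controls, and without either control none of the 8 was called. Without the filter on low counts edgeR called 6, all but Ank1 and Gata1, against 3.72%.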

How the data were processed

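For the 4 libraries the authors deposited raw counts and, separately, FPKM, each over 24005 genes. The submitters' processing notes name fastp and TopHat, without versions, and the build hg38, a human build, although the symbols are those of rat. The sources used here do not name the counter, the annotation or the strandedness, and genes that overlap may share reads. The deposited FPKM equalled the counts divided by an implied gene length and the column total (largest relative difference 6.25e-15), so they are no second measurement. All 8 symbols matched RefSeq for GRCr8, which was used for names and promoter sequence only.

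Counts were fitted in edgeR 4.0.16 (R 4.3.3) on the 15282 genes that filterByExpr kept, with TMM factors and the two-sided quasi-likelihood test of osteoarthritis over control, adjusted by Benjamini-Hochberg at 0.05. An SE is the log2 fold change divided by the root of F. No permutation test was run, since with 2 libraries a group the exact one reaches p = 0.333 at best. The genes and lists were chosen with earlier results of these data known. Of each list the text names up to 4 genes of highest mean CPM over all libraries (3 of each marker list), plus the 8 nearest patterns. Others named were chosen after their values were seen, and some results are not reported here. Alternatives were DESeq2 1.42.0, limma-voom and limma-trend (limma 3.58.1) on log2 FPKM with pseudocounts of 1 and 0.1, the likelihood ratio test, other scalings and filters, and leaving out each library. Scripts were tested on simulated data. Depth was 24492412 to 28270779 counts per library. Molecular identifiers are not mentioned in the labels, and intervals hold counting error alone. Figures used matplotlib 3.10.9 in Python 3.11.15.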

Additional observations from a re-analysis of the deposited data

How the results depend on the processing

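All 8 genes kept a negative log2 fold change in each of the 15 alternatives, 120 values in all, and lay below both controls wherever that was counted. Over all genes, edgeR's quasi-likelihood test called 0, with 1858 higher and 1706 lower at an unadjusted p under 0.05. It called 1428 genes without the low-count filter, edgeR's likelihood ratio test called 1943 and DESeq2 2369, while limma-voom called 0. Leaving out 1 library gave 0 to 2402 calls, with 0 without either control, 2402 without osteoarthritis replicate 1 and 1747 without replicate 2. The cause was not tested. The number lower at an unadjusted p under 0.05 was 7, and it ran from 3 to 7 with 1 library left out, 4 without control replicate 1 and 3 without control replicate 2. The median log2 fold change of the 8 was -3.74, and it ran from -6.35 without osteoarthritis replicate 2 to -3.04 without replicate 1. Taking the globin genes out before scaling left it at -3.74. Library size alone put the median log2 fold change of all genes at 0.27 and upper quartile factors at 0.05, against 0.15. With a pseudocount of 1 on FPKM, Gata1 was at -0.86. No paired analysis was possible because the labels carry no replicate numbers or pairing. Gata1 rests on 0 and 1 counts in osteoarthritis, and reads lost before counting cannot be seen in these files.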
